A study of Mus musculus with 9 samples.

Results

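The 10 genes described here mark macrophages and monocytes, and were followed in injured mouse muscle. They were taken by symbol from a table of 54532 genes, all 10 were found, and all 10 passed the filter on low counts. They comprised 4 genes used for macrophages in general, Adgre1, Csf1r, Itgam and Cd68, 4 genes used for resident macrophages of tissues, Mrc1, Cd163, Lyve1 and Folr2, and 2 genes used for monocytes recruited from blood, Ly6c2 and Ccr2. The question was whether resident and recruited markers differed with age and with recombinant METRNL, the cytokine meteorin-like, which macrophages release after muscle damage.

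All mice were C57/BL6J, and every tibialis anterior muscle had been damaged with barium chloride, including those of the controls, so that no uninjured muscle entered the comparisons. Young PBS mice (4 months old, n = 3) and old PBS mice (24 months old, n = 3) received the carrier into the muscle, and old rMETRNL mice (24 months old, n = 3) received the recombinant protein there, each in 3 injections over the first days. The study's text places the RNA at 8 days after injury in whole muscle, whereas the series' design text and labels give 4 days and a cell suspension, and the difference could not be resolved here. Counts ranged from 16238700 to 22522560 per library. The labels do not say which mice the samples of a group came from, so the p-values measure the spread between these libraries.

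A macrophage enters muscle by separate routes: resident cells live between the fibres and around vessels, and monocytes arrive from blood after damage, drawn by the receptor CCR2. Early arrivals carry much Ly6C and clear debris with an inflammatory programme. Later they lower Ly6C and take up scavenging and repair functions, and such cells can also gain the mannose receptor and CD163, so a resident marker in injured muscle does not by itself give a cell's origin.

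None of the 10 genes passed the test in any of the 3 comparisons. Genes were tested with the quasi-likelihood method of edgeR, and a gene passed when its p, adjusted by Benjamini and Hochberg over all genes tested, was under 0.05. With age (old PBS against young PBS) 0.0643% of 15560 genes passed. The treatment (old rMETRNL against old PBS) gave 0.108% of 15682 genes, and old rMETRNL against young PBS gave 0% of 15396. In the last comparison 371 genes had an unadjusted p under 0.05, and DESeq2 passed 0 genes with 355 at that unadjusted level. The lowest adjusted p among the 10 genes by edgeR was 0.695 for old against young PBS and 0.410 for rMETRNL against old PBS. By DESeq2 the lowest were 0.403 and 0.156, and no member passed there either.

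What the libraries did show was a shared pattern within the old PBS group. Levels below are CPM, the counts of a gene as a share of its library, after scaling by TMM, a method that sets library sizes from the bulk of the genes. The general macrophage genes, Mrc1 and Ccr2 stood low in old PBS 2 and old PBS 4 and near the other groups in old PBS 3. Cd163 and Lyve1 took another course, with their highest or second highest level in old PBS 4. In bulk RNA, fewer macrophages and less RNA of these genes per macrophage cannot be told apart.

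**Figure D1:**
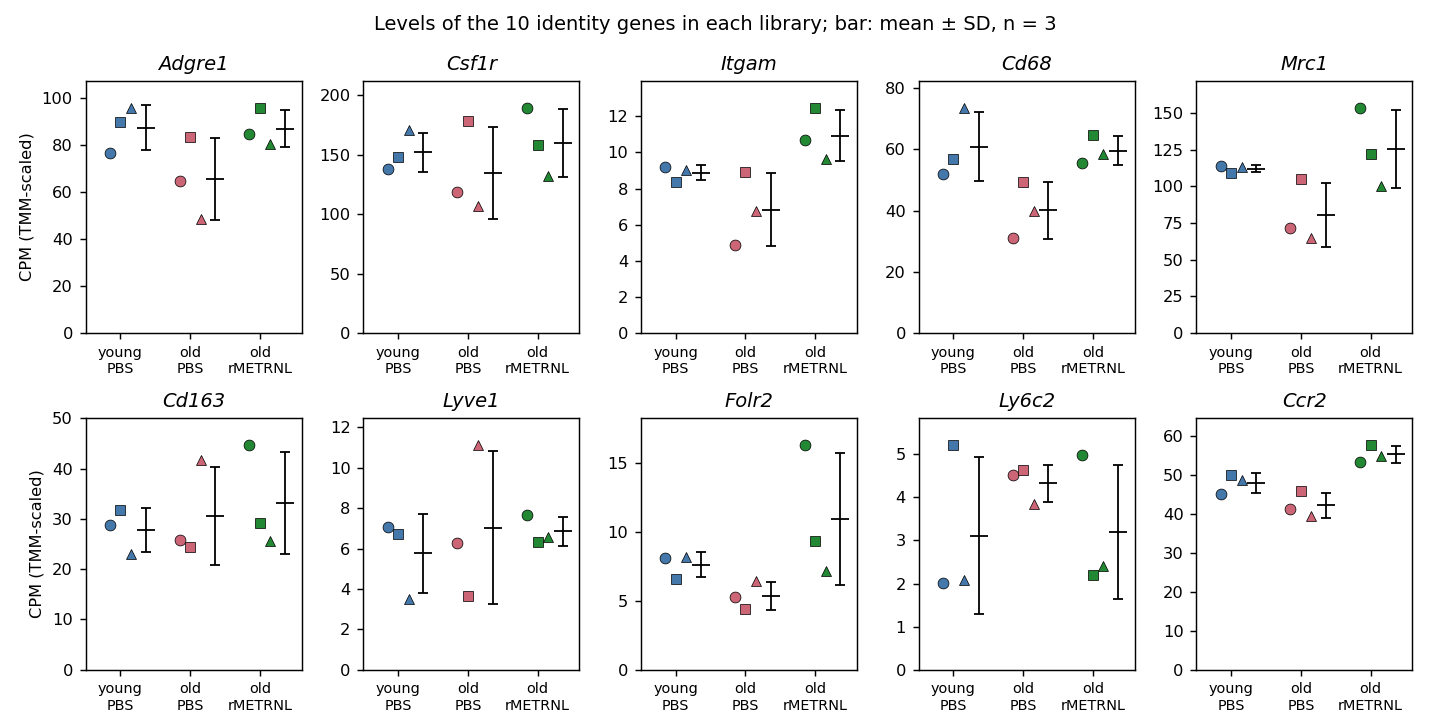
CPM of each of the 10 genes (vertical axis, from 0) in the 9 libraries by group, with the libraries of a group, in order of their number, as circle, square and triangle and a bar for the mean ± SD (n = 3). Cd68, Mrc1 and Folr2 had all 3 old PBS libraries below the young PBS libraries, and the old PBS square (old PBS 3) sits above the other old PBS libraries in Adgre1, Csf1r, Itgam, Cd68, Mrc1 and Ccr2.

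Among the general macrophage genes, Adgre1 encodes F4/80, an adhesion receptor that defines most mouse macrophages (ENSMUSG00000004730, chr17:57358691-57483527, plus strand). Coordinates here and below are of GRCm38, from the annotation whose identifiers match the table, and are gene bounds that hold exons, introns and UTRs. Its level was 76.7, 89.5 and 95.6 CPM in young PBS 1, 2 and 3, 64.6, 83.3 and 48.4 CPM in old PBS 2, 3 and 4, and 84.5, 95.5 and 80.2 CPM in old rMETRNL 1, 2 and 3. Old PBS 3 lay within the range of the other groups, and old PBS 2 and 4 lay below every other library. The fitted difference between old PBS and young PBS was -0.42 ± 0.22 on the log2 scale (SE; edgeR adjusted p = 0.953), and between old rMETRNL and old PBS it was 0.40 ± 0.21 (adjusted p = 0.678).

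Csf1r, the receptor through which CSF1 and IL-34 keep macrophages alive, lies at chr18:61100598-61132149 on the plus strand (ENSMUSG00000024621) and overlaps Hmgxb3 on the opposite strand. It was at 138, 148 and 170 CPM in young PBS, 118, 179 and 107 CPM in old PBS and 189, 158 and 132 CPM in old rMETRNL. Old PBS 3 had the second highest level of the 9 libraries and old PBS 2 and 4 the lowest, so the group overlapped both others. The fitted differences were -0.18 ± 0.23 for old against young PBS (edgeR adjusted p = 0.994) and 0.24 ± 0.24 for rMETRNL against old PBS (adjusted p = 0.813).

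Itgam encodes CD11b, an integrin chain of macrophages, monocytes and neutrophils (ENSMUSG00000030786, chr7:128062640-128118491, plus strand), and shares its strand with the overlapping model Gm49368, so reads of the pair could have been divided. Its CPM was 9.19, 8.39 and 9.03 in young PBS, 4.85, 8.93 and 6.74 in old PBS and 10.7, 12.5 and 9.64 in old rMETRNL. All 3 rMETRNL libraries lay above all 3 old PBS libraries, whereas old and young PBS overlapped through old PBS 3. The difference between rMETRNL and old PBS was 0.66 ± 0.25 on the log2 scale (unadjusted p = 0.0286, edgeR adjusted p = 0.541). Without old PBS 3 it was 0.91 with an edgeR adjusted p of 0.0393. In that fit 1560 of 15981 genes passed, against 17 of 15682 with all libraries. This library thus decided the call, as it did for many other genes.

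Cd68, a lysosomal glycoprotein of phagocytes (ENSMUSG00000018774, chr11:69664213-69666153, minus strand), had levels of 52.1, 56.9 and 73.6 CPM in young PBS, 31.0, 49.4 and 39.9 CPM in old PBS and 55.7, 64.8 and 58.4 CPM in old rMETRNL. Every old PBS library lay below every library of both other groups. Old PBS averaged 40.1 ± 9.22 CPM (SD, n = 3) against 60.9 ± 11.2 CPM in young PBS, and the fitted difference of -0.60 ± 0.22 had the lowest p of the 10 genes in that comparison (unadjusted p = 0.0222, edgeR adjusted p = 0.695). Against old PBS, rMETRNL differed by 0.57 ± 0.19 (unadjusted p = 0.0169, adjusted p = 0.462). Without old PBS 3 the latter difference was 0.75 with an edgeR adjusted p of 0.0254, in a fit in which 1560 of 15981 genes passed.

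Of the resident markers, Mrc1 encodes CD206, the mannose receptor of scavenging macrophages (ENSMUSG00000026712, chr2:14229392-14332057, plus strand, holding the microRNA gene Mir511). It stood at 114, 109 and 113 CPM in young PBS, 71.8, 105 and 64.6 CPM in old PBS and 153, 122 and 100 CPM in old rMETRNL. The young PBS values were close together, with an SD of 2.70 CPM against 21.6 in old PBS and 26.7 in old rMETRNL. All old PBS libraries lay below the young PBS libraries, although old PBS 3 came close to young PBS 2, and old PBS 3 exceeded old rMETRNL 3. The fitted differences were -0.48 ± 0.21 for old against young PBS (unadjusted p = 0.0486, edgeR adjusted p = 0.838) and 0.63 ± 0.24 for rMETRNL against old PBS (unadjusted p = 0.0278, adjusted p = 0.537). Without old PBS 3 they were -0.72 (edgeR adjusted p = 0.0452) and 0.88 (adjusted p = 0.0265). In those fits 401 of 15884 and 1560 of 15981 genes passed.

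Cd163 encodes the scavenger receptor for haemoglobin bound to haptoglobin (ENSMUSG00000008845, chr6:124304656-124330527, plus strand). Its CPM was 28.8, 31.7 and 23.1 in young PBS, 25.7, 24.3 and 41.8 in old PBS and 44.8, 29.2 and 25.7 in old rMETRNL. The groups overlapped throughout, and 1 library in each old group, old PBS 4 and old rMETRNL 1, stood above the rest. The fitted differences were 0.13 ± 0.23 for old against young PBS (95% interval -0.40 to 0.67) and 0.12 ± 0.27 for rMETRNL against old PBS (-0.51 to 0.74), both smaller than their errors.

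Lyve1, a hyaluronan receptor of lymphatic vessels and of macrophages next to vessels (ENSMUSG00000030787, chr7:110850607-110863239, minus strand), had 7.05, 6.72 and 3.50 CPM in young PBS, 6.27, 3.68 and 11.1 CPM in old PBS and 7.66, 6.34 and 6.57 CPM in old rMETRNL. Old PBS 4 was the highest library, and old PBS 3 and young PBS 3 were the lowest. The range within old PBS was 3.03-fold, and the fitted difference between old and young PBS, 0.28 ± 0.43, was smaller than its error. Between rMETRNL and old PBS it was -0.03 ± 0.37, with a 95% interval of -0.86 to 0.80. Without old PBS 4 the differences were -0.22 and 0.46, both of the opposite sign, and without old rMETRNL 2 the second was 0.02.

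Folr2, a folate receptor of resident macrophages (ENSMUSG00000032725, chr7:101839988-101857194, minus strand), overlaps an antisense model, Gm10602. It had 8.09, 6.55 and 8.13 CPM in young PBS, 5.26, 4.42 and 6.42 CPM in old PBS and 16.3, 9.34 and 7.15 CPM in old rMETRNL. Old PBS lay below both other groups in every library, and old rMETRNL 1 stood well above the remaining 8 libraries. The difference between rMETRNL and old PBS, 1.03 ± 0.32 on the log2 scale or 2.04-fold, was the largest fitted change among the 10 genes with all libraries (95% interval 0.29 to 1.76, unadjusted p = 0.0117, edgeR adjusted p = 0.410). Without old rMETRNL 1 it was 0.62, less than that of Itgam (0.68) and smaller in size than that of Ly6c2 (-0.91). It passed when no filter on low counts was applied (edgeR adjusted p = 0.0125), under which 740 of 28995 genes passed. Old against young PBS gave -0.51 ± 0.23 (unadjusted p = 0.0588, edgeR adjusted p = 0.874).

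**Figure D2:**
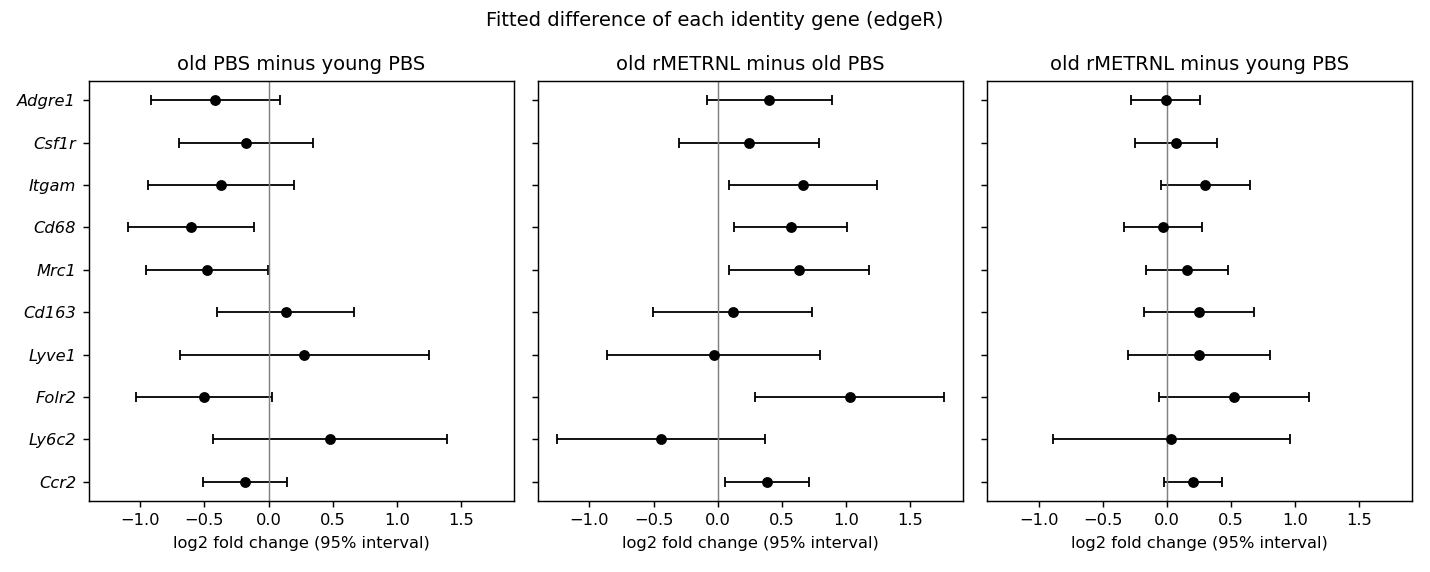
Fitted log2 fold change (horizontal axis) of each gene in the 3 comparisons, with bars for 95% intervals that are not adjusted for the number of genes. For rMETRNL against old PBS the intervals of Itgam, Cd68, Mrc1, Folr2 and Ccr2 lay above 0, and for rMETRNL against young PBS every interval included 0.

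Of the recruited markers, Ccr2, the receptor that brings monocytes to the chemokine CCL2 (ENSMUSG00000049103, chr9:124101950-124113557, plus strand), varied least. Its level was 45.1, 49.9 and 48.8 CPM in young PBS, 41.4, 45.8 and 39.4 CPM in old PBS and 53.3, 57.7 and 54.7 CPM in old rMETRNL. The 3 rMETRNL libraries were the highest of the 9 and did not overlap either group of PBS libraries. The fitted difference to old PBS was 0.38 ± 0.14 (1.31-fold, unadjusted p = 0.0266, edgeR adjusted p = 0.534), and that to young PBS was 0.20 ± 0.10 (unadjusted p = 0.0702, adjusted p = 0.9996). Old against young PBS gave -0.19 ± 0.14 (edgeR adjusted p = 0.994).

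Ly6c2 encodes the Ly6C antigen whose high level marks newly recruited monocytes (ENSMUSG00000022584, chr15:75108158-75111970, minus strand). It was counted from 35 to 106 times per library, the lowest level of the 10 genes. Its CPM was 2.02, 5.22 and 2.09 in young PBS, 4.52, 4.64 and 3.84 in old PBS and 4.98, 2.21 and 2.40 in old rMETRNL. The old PBS libraries were alike, whereas young PBS and old rMETRNL each held 1 library above every old PBS library and 2 libraries below them. The fitted differences were 0.48 ± 0.40 for old against young PBS (95% interval -0.44 to 1.39, edgeR adjusted p = 0.994) and -0.44 ± 0.36 for rMETRNL against old PBS (-1.25 to 0.37, adjusted p = 0.772). Only Lyve1 had wider intervals in these comparisons. The first difference was 1.07 without young PBS 2, 0.24 without young PBS 1 and 0.25 without young PBS 3, and the second was -0.91 without old rMETRNL 1, -0.23 without old rMETRNL 2 and -0.28 without old rMETRNL 3.

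The reads of Ly6c2 are also hard to place, because Ly6c1, which endothelial cells express, is a close copy on the same chromosome. The longest coding transcript of Ly6c2 in the annotation, 822 bases, matched that of Ly6c1 at 97.6% of the aligned bases, with 20 mismatches. Of all stretches of 150 bases in it 5.79% occurred unchanged in a Ly6c1 transcript, and of stretches of 50 bases 32.6% did. Ly6c1 itself was counted far more often, at 77.3, 66.4 and 55.1 CPM in young PBS, 54.9, 66.2 and 100 CPM in old PBS and 88.8, 65.8 and 66.2 CPM in old rMETRNL. Ly6c2 gave between 2.62 and 8.22 counts per 100 counts of Ly6c1 in the 9 libraries. Ly6c1 had its highest level in old PBS 4 and Ly6c2 in young PBS 2. How many counts of Ly6c2 were misplaced was not tested.

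The copies also share part of the sequence before their start sites. The windows below are the 250 bases before the first listed start of each gene, from RefSeq on GRCm38.p6, at chr15:75111972-75112221 for Ly6c2 and chr15:75048838-75049087 for Ly6c1, both on the minus strand and written 5′ to 3′ in the direction of the gene. They are shown so that the copies can be compared, although the windows lie outside the transcripts and do not bear on how reads were placed. Capitals mark GAGGAAGT, a core sequence bound by PU.1, the factor of myeloid cells.
Ly6c2: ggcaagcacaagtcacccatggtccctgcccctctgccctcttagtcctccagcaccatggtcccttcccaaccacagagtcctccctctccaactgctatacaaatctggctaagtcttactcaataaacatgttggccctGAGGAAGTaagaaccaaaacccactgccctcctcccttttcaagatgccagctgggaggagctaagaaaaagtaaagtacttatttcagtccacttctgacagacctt
Ly6c1: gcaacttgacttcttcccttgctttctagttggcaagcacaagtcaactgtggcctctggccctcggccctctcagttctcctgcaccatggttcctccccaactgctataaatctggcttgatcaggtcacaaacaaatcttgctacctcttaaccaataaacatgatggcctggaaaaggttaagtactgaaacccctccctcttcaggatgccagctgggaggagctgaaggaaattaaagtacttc
The windows matched at 75.9% of 216 aligned bases. GAGGAAGT, searched on both strands, began 108 bases before the Ly6c2 start and did not occur in the Ly6c1 window. It occurred in 2.44% of all 32851 promoter windows of this length, and among the 7 members with an entry only Ly6c2 held it in the windows searched. GCAAT, a part of the site bound by C/EBP factors, was in 23.1% of all windows and in none of those of the 7 members. Adgre1, Csf1r and Lyve1 had no entry. These are matches of letters and not measurements of binding.

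Compared per length, as CPM per kilobase of all annotated exons of a gene, the genes kept nearly the same order in each group. For Ly6c2 that length was 2740 bases, against 822 bases for the transcript given above. Its place in the order below therefore depends on the length used. In young PBS, Cd68 came first at 48.4 ± 8.94, ahead of Adgre1 (27.0 ± 2.98) and Csf1r (26.3 ± 2.90), which overlapped each other. Mrc1 followed at 17.6 ± 0.424, then Ccr2 at 7.09 ± 0.374, and Cd163 (5.10 ± 0.803) and Folr2 (4.91 ± 0.581), which overlapped. Lyve1, Itgam and Ly6c2, between 1.97 and 1.14, formed the lower end and each overlapped its neighbour. In old PBS the levels of Cd68, Csf1r, Adgre1 and Mrc1 overlapped in sequence (31.9 ± 7.34 down to 12.6 ± 3.39), and Itgam (1.36 ± 0.406) took the last place below Ly6c2 (1.58 ± 0.157), with overlap. In old rMETRNL, Folr2 (7.07 ± 3.09) stood above Cd163 (6.08 ± 1.86), again with overlap.

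Read by group, 7 of the 10 genes had a negative fitted difference between old and young PBS, with a median of -0.28 on the log2 scale against 0.01 over all genes tested. Without old PBS 2 that median was -0.17, and without old PBS 3 it was -0.41. Cd68, Mrc1 and Folr2 had old PBS entirely below young PBS, and no member had it entirely above. Over all genes such separation occurred in 5.25% downward and 5.28% upward. Between rMETRNL and old PBS the median was 0.39 against -0.01 over all genes, 8 of 10 differences were positive, and Itgam, Cd68, Folr2 and Ccr2 had every rMETRNL library above every old PBS library, beside 6.95% of all genes; no member had the reverse, seen in 5.69% of all genes. The 2 comparisons share the 3 old PBS libraries, so opposite signs in them are 1 observation of low old PBS values and not 2. Between rMETRNL and young PBS the median was 0.18 against 0.00, and Itgam and Ccr2 lay entirely higher in rMETRNL, beside 3.92% of all genes, and no member lay entirely lower (2.95% of all genes).

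These counts rest on how old PBS 3 is treated. Without it, 7 members lay entirely below young PBS and 7 entirely below old rMETRNL, the same 7 genes, namely Adgre1, Csf1r, Itgam, Cd68, Mrc1, Folr2 and Ccr2. With only 2 old PBS libraries left, 19.9% of all genes lay below young PBS in this way and 23.6% below old rMETRNL. Mrc1 passed the test against young PBS, and Mrc1, Itgam and Cd68 passed against old rMETRNL. In all, 401 of 15884 and 1560 of 15981 genes passed in these 2 fits, so most of the calls were of other genes. Removing old PBS 3 was chosen with its position known, so these calls describe the spread and are not separate evidence.

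Across the 9 libraries, Adgre1, Csf1r, Itgam, Cd68, Mrc1 and Ccr2 varied together, with Pearson's r of log2 CPM from 0.60 to 0.88 over their 15 pairs. After each group's mean had been taken off, r ranged from 0.37 to 0.94. Cd163 and Lyve1 went with each other (r = 0.79, and 0.78 with the group means taken off) but not with the first 6, with r from -0.65 to 0.08. With the group means taken off, r between Cd163 or Lyve1 and the first 6 ranged from -0.89 to 0.01, with a median of -0.54. Mrc1, listed here as a resident marker, thus moved with the general macrophage genes, as did Ccr2, listed as a recruited one. Ly6c2 had r between -0.51 and 0.42 with the other members. Folr2 ranged from -0.16 (with Ly6c2) to 0.69 (with Mrc1), at 0.57 with Cd163 and 0.28 with Lyve1. These correlations describe 9 libraries that share a scaling.

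**Figure D3:**
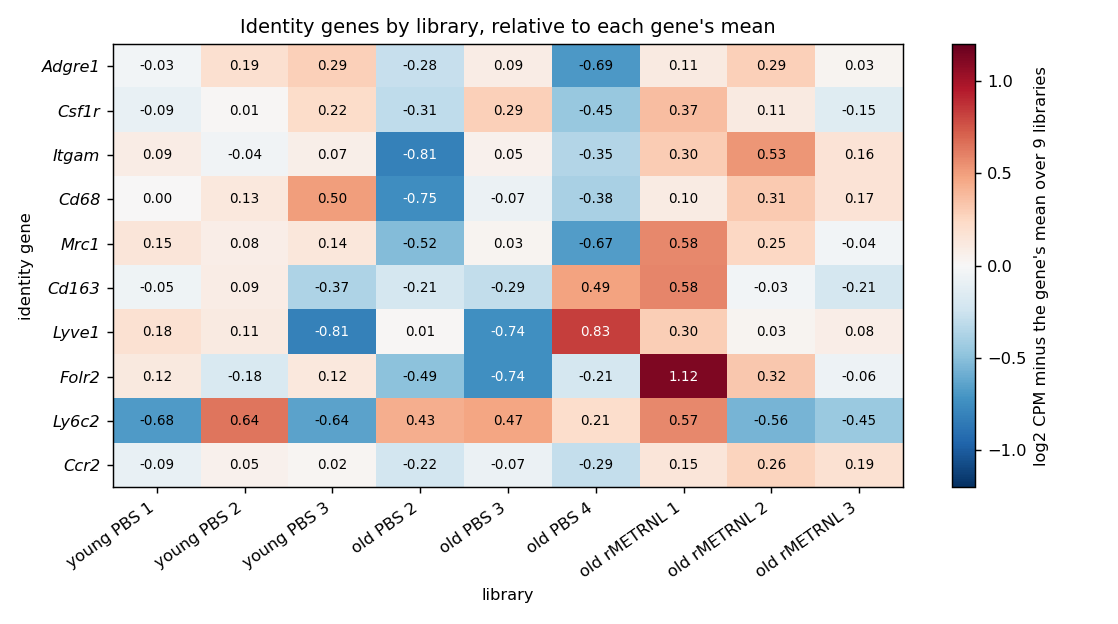
Log2 CPM of each gene (rows) in each library (columns) minus the mean of that gene over 9 libraries, with red above and blue below the mean. Adgre1, Csf1r, Itgam, Cd68, Mrc1 and Ccr2 are blue in old PBS 2 and 4 and not in old PBS 3 beyond -0.07, while Cd163 and Lyve1 are at 0.49 and 0.83 in old PBS 4.

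Ratios of counts do not depend on how libraries are scaled. For 100 counts of Adgre1 there were 119 to 149 counts of Mrc1 in young PBS, 111 to 133 in old PBS and 125 to 181 in old rMETRNL. Ccr2 gave 51.0 to 58.8, 55.0 to 81.4 and 60.5 to 68.2 counts in the same groups, so that rMETRNL lay above young PBS and within the range of old PBS. Cd163 gave 24.1 to 37.5 in young PBS and 30.6 to 52.9 in old rMETRNL, and 39.8, 29.2 and 86.3 in old PBS 2, 3 and 4. In old PBS 4 Lyve1 reached 23.02 counts against 3.66 to 9.70 in the other 8 libraries. Ly6c2 gave 2.18 to 5.83 in young PBS, 5.57 to 7.93 in old PBS and 2.31 to 5.90 in old rMETRNL, with overlap in both cases.

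The balance of resident and recruited markers was summarised as the mean log2 CPM of Mrc1, Cd163, Lyve1 and Folr2 minus that of Ly6c2 and Ccr2. It was 1.10, 0.29 and 0.69 in young PBS, 0.20, -0.03 and 0.76 in old PBS and 0.89, 0.90 and 0.68 in old rMETRNL. The means were 0.69 ± 0.40, 0.31 ± 0.40 and 0.82 ± 0.12 (SD, n = 3), and the ranges of all groups overlapped. The difference of 0.52 between rMETRNL and old PBS was 0.06 when Ly6c2 was left out, and that of -0.38 between old and young PBS was then 0.01. The balance therefore turned on Ly6c2, the least counted of its 6 genes. Single libraries also moved the difference between old and young PBS, to -0.18 without young PBS 1, -0.21 without old PBS 3, -0.58 without young PBS 2 and -0.61 without old PBS 4.

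**Figure D4:**
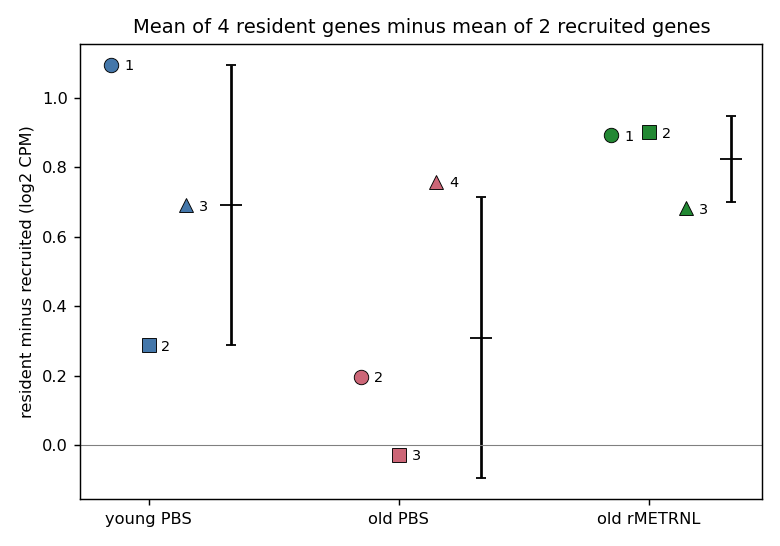
Resident minus recruited balance in log2 CPM (vertical axis) for each library, numbered by replicate, with mean ± SD (n = 3) at the right of each group. Old PBS 4, at 0.76, lies among the old rMETRNL libraries, and young PBS 2, at 0.29, among the old PBS libraries.

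The neighbouring myeloid genes behaved like the general markers. Of 20 further genes of macrophages and other myeloid cells, such as the complement subunits C1qa, C1qb and C1qc, none passed in either comparison with old PBS, 19 had a negative difference between old and young PBS (median -0.21), and 20 had a positive one between rMETRNL and old PBS (median 0.28). Lyz2, the lysozyme of phagocytes, and Tyrobp, the adaptor of many myeloid receptors, were the 2 with all old PBS libraries outside the other groups. Lyz2 was at 943, 1005 and 1126 CPM in young PBS, 728, 889 and 758 CPM in old PBS and 963, 1278 and 1100.2 CPM in old rMETRNL. Its difference was -0.38 ± 0.21 with age (edgeR adjusted p = 0.976) and 0.49 ± 0.22 with rMETRNL (adjusted p = 0.640). Tyrobp gave -0.41 ± 0.22 and 0.45 ± 0.22, and Lcp1, an actin-bundling protein of leukocytes, -0.36 ± 0.22 and 0.41 ± 0.22.

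Scaling the libraries to the summed counts of these 20 genes, an alternative added after the values were seen, asks about each member per unit of their summed RNA. A few genes held most of that sum. In young PBS 1, Lyz2, C1qa, C1qb, C1qc and Ctss were at 943, 200, 224, 143 and 187 CPM, above the rest of the list. This scaling put the median of all genes at 0.35 for old against young PBS and at -0.43 for rMETRNL against old PBS. The 10 members then had medians of 0.01 and -0.02, and Adgre1 differed by -0.11 and 0.00. None passed. Ly6c2 gave 0.79 (unadjusted p = 0.0861) and -0.85 (unadjusted p = 0.0475, edgeR adjusted p = 0.273).

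Among 18 further genes of resident macrophages, none passed, with 10 of 18 differences negative between old and young PBS (median -0.08) and 14 of 17 positive between rMETRNL and old PBS (median 0.28). Cd209b, a lectin, had 0.983, 0.9997 and 0.621 CPM in young PBS, 2.63, 0.963 and 3.08 CPM in old PBS and 1.93, 0.623 and 0.317 CPM in old rMETRNL, with a difference of 1.33 ± 0.51 with age (edgeR adjusted p = 0.742). Vsig4, a complement receptor of tissue macrophages, was under 2 CPM throughout, and all old PBS libraries lay above all others (differences 0.95 ± 0.43 and -1.06 ± 0.41, edgeR adjusted p = 0.870 and 0.542). Ednrb, an endothelin receptor that vessels also carry, differed by -0.27 ± 0.18 with age and by 0.66 ± 0.21 with rMETRNL (adjusted p = 0.424), and Stab1, a scavenger receptor shared with endothelium, by 0.70 ± 0.30 with rMETRNL (adjusted p = 0.610). Timd4, a marker of long-lived resident macrophages, was counted 1 to 15 times per library.

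Of 15 further monocyte genes, 11 and 12 could be tested and none passed. With age 6 differences were positive and 5 negative (median 0.13), and with rMETRNL 9 were positive and 3 negative (median 0.32). Among those with the lowest p were matrix genes that fibroblasts also make. Fn1, fibronectin, gave -0.89 ± 0.36 with age (edgeR adjusted p = 0.788) and 0.78 ± 0.27 with rMETRNL (adjusted p = 0.485), Vcan, the proteoglycan versican, gave -0.77 ± 0.34 and 0.91 ± 0.34, and Thbs1, thrombospondin, gave -1.02 ± 0.55 with age. Ace, which nonclassical monocytes and endothelium express, differed by 0.51 ± 0.24 with rMETRNL. Fibroblast genes, as summed CPM of Pdgfra, Col1a1, Dcn, Ly6a and Lum, ranged from 2049.6 to 3064 in old PBS, 3476 to 5175 in young PBS and 3237 to 4971 in old rMETRNL. Of these sums Col1a1 alone was 664 to 2114, 2183 to 4136 and 1991 to 3365 CPM in the same groups. The part of these genes in the differences above was not tested.

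Among 12 ligands and receptors that recruit or keep macrophages, none of the 11 tested passed. Ccl2, the ligand of CCR2, had the lowest p: 4.28, 4.67 and 5.87 CPM in young PBS, 1.82, 2.93 and 2.39 CPM in old PBS and 5.68, 4.70 and 4.39 CPM in old rMETRNL. Every old PBS library lay below all 6 others, with differences of -1.04 ± 0.29 with age (unadjusted p = 0.00670, edgeR adjusted p = 0.420) and 1.03 ± 0.29 with rMETRNL (unadjusted p = 0.00593, adjusted p = 0.323). Csf1, the growth factor of macrophages, gave -0.26 ± 0.16 and 0.31 ± 0.15, Il34, the other ligand of CSF1R, -0.30 ± 0.21 with age, and Cx3cl1, a chemokine for patrolling monocytes, -0.55 ± 0.27 with rMETRNL.

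Transcripts of other tissues were present in the old PBS libraries. The summed CPM of 5 genes of brain, Mobp, Slc1a2, Gfap, Snap25 and Mbp, was 179, 71.5 and 226 in old PBS 2, 3 and 4 and between 7.46 and 13.1 in the other 6 libraries, with Mobp, of central myelin, at 0 counts in those 6. Slc1a2, Mobp and Gfap passed the test between old and young PBS, and these and Snap25 between rMETRNL and old PBS. Of hepatocyte genes the sum was 80.1, 31.7 and 9.003 CPM in old PBS and 2.26 to 6.36 elsewhere, and Apoa1 passed between rMETRNL and old PBS. Brain and liver have macrophages of their own, microglia and Kupffer cells, whose markers were therefore read as well. The summed level of 5 microglial genes was 29.6 to 44.4 CPM in old PBS, 38.2 to 47.9 in young PBS and 42.0 to 49.4 in old rMETRNL, and none of the 5 passed in either comparison with old PBS. They did not move together. Sall1, Siglech and P2ry12 had all old PBS libraries above the young PBS libraries, at 0.831 to 1.08, 2.89 to 4.41 and 4.52 to 5.78 CPM against 0.169 to 0.444, 1.45 to 2.499 and 3.50 to 4.22 CPM, and Sall1 and Siglech also lay above the rMETRNL libraries. Gpr34 lay lower in old PBS (11.5 to 13.9 CPM, and 14.5 to 17.9 elsewhere), and Tmem119 was at 8.29 and 7.43 CPM in old PBS 2 and 4 and at 16.5 to 25.4 elsewhere. Clec4f, the defining gene of Kupffer cells, was counted at most 3 times in any library, with counts in old PBS 2, 3 and 4 and in no other library. The other Kupffer genes did not move together either. Vsig4 lay higher in old PBS, as given above, and Cd5l lay lower, at 0.876, 0.919 and 0.126 CPM against 1.47 to 3.74 CPM elsewhere. Marco was at 0 to 0.189 CPM in old PBS and 0.111 to 1.45 CPM elsewhere. All 3 old PBS libraries carried transcripts of brain and liver, so age or treatment and their presence cannot be told apart within this group, and their part in the members' values was not tested.

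The summed levels of muscle fibre, fibroblast and endothelial genes also varied with the general macrophage genes. The summed CPM of Acta1, Ckm, Myh4, Tnnt3 and Des was 91284 and 101604 in old PBS 2 and 4, 51156 in old PBS 3, and 62582 to 84516 in the other 6 libraries. Over the 9 libraries its logarithm had r = -0.74 (Spearman's rho = -0.82) with the mean of Adgre1, Csf1r, Itgam and Cd68, and r = -0.85 without old PBS 3 and 4, the 2 farthest from the median. With the mean of Cd163 and Lyve1, r was 0.51 and then -0.23, so the latter relation rested on those 2 libraries. Genes of other cells varied with the same 4 macrophage genes. The summed fibroblast genes had r = 0.89 with them (rho = 0.75, and r = 0.64 without old PBS 2 and 4). Col1a1 held much of that sum, at 664 to 4136 CPM, and the fibroblast genes did not all move alike. In old PBS 4 Dcn and Ly6a were at 1003 and 113 CPM, exceeded only in old rMETRNL 1. Pdgfra had its lowest level there, 66.9 CPM, and Lum was at 203 CPM. The 5 genes of blood endothelium had r = 0.82 with the 4 macrophage genes (rho = 0.82, and r = 0.77 without old PBS 4 and old rMETRNL 1). The endothelial genes summed to 303 to 372 CPM in young PBS, 203 to 308 CPM in old PBS and 299 to 397 CPM in old rMETRNL. None of the 5 passed, all 5 had a negative difference between old and young PBS (median -0.29), and all 5 a positive one between rMETRNL and old PBS (median 0.39), beside medians of -0.28 and 0.39 for the 10 members. New fibre genes (Myog, Myh3, Myh8, with Myod1 and Pax7) summed to 3178 CPM in old PBS 3 and 230 in old PBS 4, beside 698 to 1279.6 elsewhere. The part of these shares in the members' differences was not tested.

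**Figure D5:**
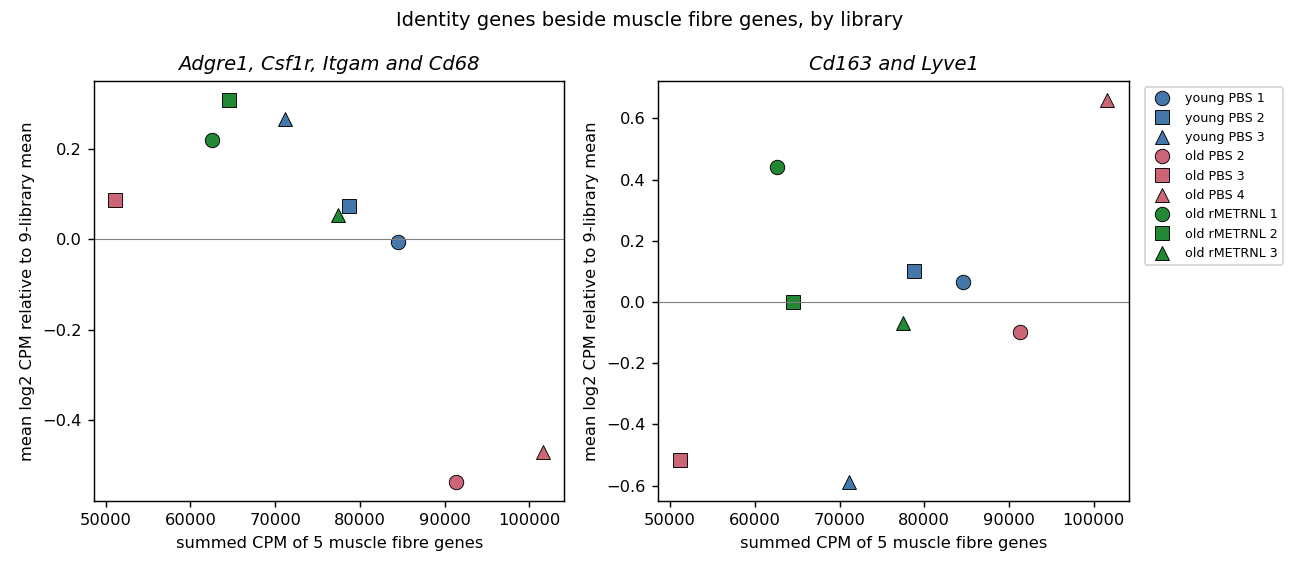
Mean log2 CPM of 4 general macrophage genes (left) and of Cd163 and Lyve1 (right), each relative to the 9-library mean, against the summed CPM of 5 muscle fibre genes (horizontal axis, CPM). On the left old PBS 2 and 4 lie at the right below the other 7 libraries, and on the right old PBS 4 is the highest point.

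Markers of other cells that carry some of these genes were read in the same way. Ly6g, the defining gene of neutrophils, had 0 counts in all 9 libraries, which allows up to 3 counts or, before TMM scaling, 0.185 CPM in the least deep one. The neutrophil genes together summed to 10.6 to 25.3 CPM in old PBS and 9.19 to 14.2 in the other groups, and Csf3r, at 6.11 to 18.0 CPM, was the largest part. S100a8 was at 1.21 to 2.90 CPM in old PBS and at most 0.679 elsewhere. S100a9 was at 0.539, 3.24 and 5.41 CPM in old PBS 2, 3 and 4 and at most 1.64 elsewhere. The remaining genes of the list were at most 1.64 CPM and did not separate the groups. None of the 4 genes tested in the comparisons with old PBS passed. Of the lymphatic genes that would accompany Lyve1 from vessels, Ccl21a had 0 counts throughout, and the list summed to 31.7 to 37.5 CPM in old PBS, 36.9 to 41.8 in young PBS and 40.0 to 50.8 in old rMETRNL, with old PBS 4, where Lyve1 was highest, at 31.7. Pdpn was the largest part of this sum, at 18.7 CPM in old PBS 4, where Prox1, Flt4, Mmrn1 and Reln were at 3.53, 4.97, 2.20 and 2.27 CPM. Stab2 is a hyaluronan receptor of the liver's sinusoidal endothelium, which also transcribes Lyve1 and Mrc1. It was at 10.8, 5.29 and 11.8 CPM in old PBS 2, 3 and 4 and 2.26 to 5.52 CPM elsewhere. Like Lyve1 it was highest in old PBS 4, but in old PBS 2 Lyve1 was at 6.27 CPM, within the range of the other groups. In old rMETRNL 1, where Lyve1 was second highest (7.66 CPM), Stab2 was at 3.38 CPM. Stab2 was the 1 gene of 3 measured sinusoidal genes with enough counts to test, and it did not pass. Dendritic cell genes summed to between 41.2 and 64.2 CPM in all libraries, above the levels of Itgam, Lyve1, Folr2 and Ly6c2. The part of these cells in the members' levels was not tested.

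The genes whose levels followed a member most closely were found among 10951 genes that averaged at least 5 CPM. Those closest to Adgre1 over the 9 libraries were Fam129b (r = 0.99), Soat1, which esterifies cholesterol (0.99), Mtpn (0.99), C77080 (0.99) and Slc39a10, a zinc transporter (0.98). Closest to Lyve1 were Sumo2 (0.97), Myoc (0.96), Gsn, the actin-severing gelsolin (0.96), Coa3 (0.96) and Anapc11 (0.95). Closest to Ly6c2 were Zbtb10 (0.91), Dph7 (0.88), Cep70 (0.85), Aebp2 (0.84) and Fbrsl1 (0.83). With 9 points and this many genes, values of this size describe the ordering of the libraries and nothing of function.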

How the data were processed

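RNA from injured tibialis anterior muscle of 9 mouse samples was sequenced as paired-end libraries. The authors deposited raw read counts per gene, and their processing notes name STAR, featureCounts and the build mm9, with no version, annotation or strand setting. Of the 54532 identifiers 54495 matched GENCODE M21 (GRCm38), from which symbols, gene bounds and exon lengths were taken. Groups followed the labels. The members and all gene lists were chosen with earlier results of these data known, and the genes named from the lists are those that passed, those with the 3 lowest p-values in the comparisons with old PBS, and defining markers. A gene of the brain marker list is not reported here.

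Each pair of groups was fitted on its 6 libraries with edgeR 4.0.16 in R 4.3.3 (filterByExpr, TMM, quasi-likelihood test, Benjamini-Hochberg threshold 0.05). The authors' methods name DESeq2, which was run as an alternative (1.42.0). Log2 CPM used a prior count of 2. Intervals are at 95%. Scripts were tested on simulated counts. Libraries held 16238700 to 22522560 counts, and a member held 35 to 4086 counts in a library, which bounds its precision. No 2 libraries of a group agreed within counting noise (lowest chi-square per degree of freedom 11.6). Other settings covered size factors, low-count filters, 1 fit over all libraries, a replicate block and leaving out each library.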

Additional observations from a re-analysis of the deposited data

How the results depend on the processing

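The p-values compare 3 libraries with 3, all old PBS libraries carry RNA of other tissues, and genes such as Ly6c2 and Lyve1 were counted few times. Of 390 repeats of the members' differences under other settings, 355 kept their direction and their side of the threshold, 5 newly passed and 30 changed sign. No member had passed with the main setting, so no pass could be lost, and keeping the side of the threshold meant again not passing. The number of genes that passed was 10 for old against young PBS, 17 for rMETRNL against old PBS and 0 for rMETRNL against young PBS. With no filter on low counts these were 354, 740 and 132, and 1 member, Folr2, passed in the second comparison. With at least 10 counts in every library 3 and 1 genes passed in the first 2 comparisons, with all 9 libraries in 1 fit 63 and 71, and by DESeq2 265 and 357. Same-numbered libraries did not deviate together throughout (r from -0.32 to 0.41, and in young PBS and old rMETRNL, the pair of groups with 3 shared numbers, 0 of 6 libraries correlated best with their own number). With so few libraries in a group, these values cannot settle whether the numbers pair the libraries. With the replicate number as a block 65 genes passed between rMETRNL and old PBS, no member passed, and the sign changed for Cd163 (-0.11) and Lyve1 (-0.019) with age and for Csf1r (-0.016) and Lyve1 (0.42) with rMETRNL. Scaled to the 20 further myeloid genes, a setting added later, 98 and 205 genes passed in the first 2 comparisons, the members' medians were 0.0072 and -0.0167, and the sign changed for Csf1r (0.12) and Ccr2 (0.14) with age, for Csf1r (-0.14), Cd163 (-0.34) and Ccr2 (-0.037) with rMETRNL, and for Csf1r (-0.021) and Ly6c2 (-0.063) between rMETRNL and young PBS. The resident minus recruited difference was 0.0096 and 0.0624 without Ly6c2. Leaving out 1 library at a time, the genes passed ranged from 2 to 401 with age, 3 to 1560 with rMETRNL and 0 to 1 between rMETRNL and young PBS, and the members passed from 0 to 1, 0 to 3 and 0; both upper ends of the first 2 comparisons came without old PBS 3. The members' median ranged from -0.41 to -0.17 with age, from 0.34 to 0.56 with rMETRNL and from 0.013 to 0.25 between rMETRNL and young PBS. The resident minus recruited difference ranged from -0.61 to -0.18 with age and from 0.35 to 0.74 with rMETRNL. Adgre1 ranged from -0.63 to -0.24 with age and from 0.21 to 0.62 with rMETRNL, and Csf1r from -0.44 to -0.033 and from 0.091 to 0.50. With age Cd163 ranged from -0.16 to 0.27 and Lyve1 from -0.22 to 0.59. With rMETRNL against old PBS Cd163 ranged from -0.16 to 0.39 and Lyve1 from -0.35 to 0.46. Between rMETRNL and young PBS the ranges that crossed 0 were -0.098 to 0.061 for Adgre1, -0.067 to 0.19 for Csf1r, -0.13 to 0.13 for Cd68, -0.013 to 0.30 for Mrc1, -0.023 to 0.41 for Cd163, -0.0062 to 0.42 for Lyve1 and -0.43 to 0.63 for Ly6c2. Why these settings moved the values was not tested, beyond the fewer or more genes and libraries that each uses.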
